A study of Mus musculus with 383 samples.

Results

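The genes described are Trhr and Trhr2, the receptors for thyrotropin-releasing hormone (TRH), Tshr, the receptor for thyrotropin, and Trh, the precursor gene of TRH. All 4 rows were present among the 29779 genes of the deposited read count table, and they were read over the 316 of 383 nuclei in which at least 1000 genes had a read. The nuclei were dissected with the brainstem's vagal dorsal motor nucleus, which holds the parasympathetic motor neurons of the vagus nerve. They were sorted from 12-week-old male Chat-IRES-Cre mice on a C57BL/6 background, injected at 10 weeks of age with 100 nL of the Cre-dependent virus AAV9-DIO-H2b-mCherry and killed 16 days later. In these mice Cre is made under control of the cholinergic gene Chat, so any cholinergic cell reached by the virus could be tagged, and dissected tissue was pooled with no animal named for a nucleus. All nuclei belong to that 1 group, which counts as 1 sample, so the comparisons are between classes and clusters of nuclei within it and no p-value is given. Smart-seq2, which copies transcripts along their length and carries no molecular identifiers, gave a median of 1440075 reads and 11234.5 genes per retained nucleus.

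TRH is a small amidated peptide cut from repeats in its precursor. The hypothalamus releases it to drive the pituitary, where the secreted thyrotropin acts on Tshr in the thyroid, but TRH is also a transmitter. Raphe and other brainstem neurons that contain it reach the vagal motor nucleus, where the peptide excites vagal motor neurons and drives gastric secretion, and it depolarises spinal and cranial somatic motor neurons. Trhr and Trhr2 couple mainly to Gq and phospholipase C, and Tshr mainly to Gs and cyclic AMP.

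Both TRH receptors were separable in principle by sequence. In the GRCm38 assembly with the GENCODE M21 annotation, Trhr (ENSMUSG00000038760.14) lies at chr15:44196135-44235912 on the plus strand and Trhr2 (ENSMUSG00000039079.1) at chr8:122356967-122360746 on the minus strand. Their coding sequences were identical at 65.4% of 1128 aligned bases, and the longest run of identical bases was 18. The closest 60-base stretch is shown for both genes because it is where reads of one could most easily be taken for reads of the other. It lies in coding exon at chr15:44229301-44229360 (plus strand) and chr8:122357304-122357363 (minus strand), 5′ to 3′, with capitals at the 7 bases that differ.
Trhr: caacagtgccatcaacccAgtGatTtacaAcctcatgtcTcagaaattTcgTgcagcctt
Trhr2: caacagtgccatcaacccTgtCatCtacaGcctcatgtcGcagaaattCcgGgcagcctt

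Trh (ENSMUSG00000005892.4, chr6:92242061-92244650, minus strand) encodes 5 in-frame copies of the TRH sequence, each between paired basic codons, the cleavage sites of the precursor. The first and second copies are shown for the peptide the receptors bind, from chr6:92243088-92243111 and chr6:92242992-92243015 (minus strand), with capitals at the codons for glutamine, histidine, proline and the glycine that is used for amidation.
Trh copy 1: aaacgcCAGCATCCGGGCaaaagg
Trh copy 2: aaacgaCAGCACCCTGGCcgacgt

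Tshr (ENSMUSG00000020963.15) lies at chr12:91384563-91549808 on the plus strand and has 15 exon blocks. Trhr2 lies inside the span of the larger gene Gm20388, which is on the other strand and shares no exon with it. The use of strand in the counting is not given in the sources used here. Reads within Trhr2, in its exons as well as its introns, can therefore not be separated by strand from unspliced reads of Gm20388. Tshr holds the processed pseudogene Gm18827 within its span, also without a shared exon base.

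The sorted nuclei carried the cholinergic genes. At least 1 read of Chat, the gene of the enzyme that makes acetylcholine, was found in 304 of 316 nuclei (96.2%), Slc18a3, the vesicular acetylcholine transporter, in 94.0% and Slc5a7, the choline transporter, in 95.6%. A clustering that left out the receptor genes and all listed pathway genes placed 22 nuclei in 1 cluster resembling somatic motor neurons and 294 in clusters resembling visceral motor neurons, by listed markers of each (somatic-like and visceral-like from here on). The somatic markers Calca and Chodl were detected in 63.6% and 50.0% of somatic-like nuclei, against 5.10% and 11.6% of visceral-like nuclei. The visceral marker Tbx20 was detected in 40.9% of somatic-like and 92.5% of visceral-like nuclei. Median depth was 1646060 reads in somatic-like and 1431008 in visceral-like nuclei. The serotonergic gene Tph2 had a read in 42.4% of retained nuclei.

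Both main receptors were found in a minority of nuclei and were uneven among them. Trhr was detected in 102 of 316 retained nuclei (32.3%, exact 95% binomial interval 27.2 to 37.7) and Tshr in 154 (48.7%, 43.1 to 54.4). Trhr2 was detected in 6 nuclei (1.90%, 0.700 to 4.09) and Trh in 3 (0.949%, 0.196 to 2.75). Intervals cover counting error only, since copies made by amplification are not separate molecules and nuclei are not animals.

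Trhr had 4472 reads in all, or 9.43 per 1000000 reads of all genes (RPM). Per positive nucleus it had a median of 6.5 reads and a maximum of 713, 28 nuclei had a single read, and the 8 strongest nuclei held at least 50% of its reads. Tshr had 5064 reads (10.7 RPM), with a median of 3 and a maximum of 847 reads per positive nucleus. Single reads made up 55 of its positive nuclei, and again the 8 strongest nuclei held at least 50% of its reads. At a requirement of 5 reads, Trhr was found in 56 nuclei (17.7%) and Tshr in 67 (21.2%), and at 2 reads in 23.4% and 31.3%. Divided by the kilobases of annotated exon, levels were 2.36 RPKM for Trhr and 1.78 RPKM for Tshr, against 0.0755 RPKM for Trhr2 and 0.0807 RPKM for Trh.

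Trhr differed between the classes. It was detected more often in somatic-like than in visceral-like nuclei, and its summed RPM was 12.7 times as high there. To compare nuclei at equal depth, each was thinned at random to 750000 reads, which left out no somatic-like and 29 visceral-like nuclei. Trhr was then detected in 15 of 22 somatic-like nuclei (68.2%, 45.1 to 86.1) and in 67 of 265 visceral-like nuclei (25.3%, 20.2 to 31.0), a difference of 42.9 percentage points. A gene was called between groups where shares differed by at least 40 points with intervals apart, a limit that 110 of 20948 genes (0.525%) passed as higher and 135 (0.644%) as lower in somatic-like nuclei. Trhr was the 1 member that passed. It sat near the limit, since the difference was 38.6 points without thinning and 38.7 points in another random draw, both under 40, with intervals still apart. Reads of the serotonergic genes Tph2, Slc6a4 or Fev were present in 63.6% of the thinned somatic-like and 56.6% of the thinned visceral-like nuclei. Among nuclei without such reads Trhr was detected in 4 of 8 somatic-like (50.0%, 15.7 to 84.3) and 22 of 115 visceral-like nuclei (19.1%, 12.4 to 27.5), where the intervals overlapped and the call was lost. The nucleus with the most Trhr reads, 713, was somatic-like and had 783 Chat and 224 Tph2 reads.

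The levels of Trhr in single nuclei showed a gap in the somatic-like class. They ran from 0 to 310.3 RPM with a median of 26.6 RPM in the 22 somatic-like nuclei, against 0 to 290.3 RPM with a median of 0 in the 294 visceral-like nuclei. The ranges overlapped. In the somatic-like class 13 nuclei lay above 10 RPM, none between 1 and 10 RPM, 2 at or under 1 RPM and 7 at 0. In the visceral-like class 31 nuclei lay above 10 RPM (10.5%), 33 between 1 and 10 RPM, 23 at or under 1 RPM and 207 at 0. With at least 5 thinned reads required, Trhr was found in 13 of 22 somatic-like nuclei (59.1%, 36.4 to 79.3) and 34 of 265 visceral-like nuclei (12.8%, 9.05 to 17.5), which also passed the limit.

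**Figure D1:**
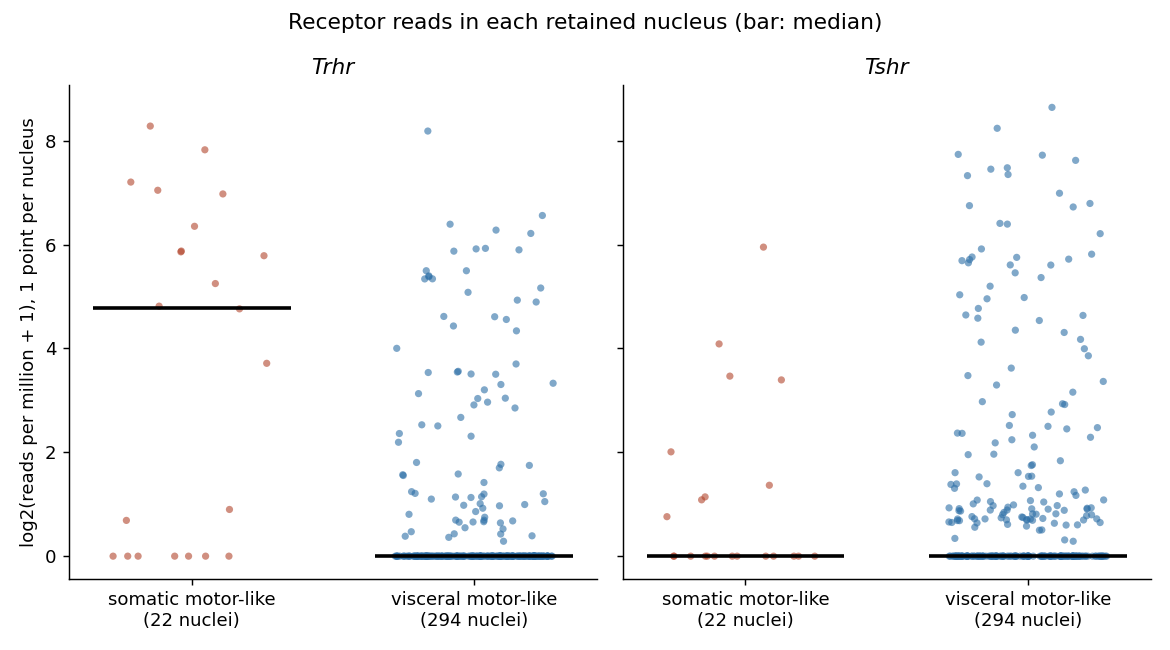
Trhr (left) and Tshr (right) in each retained nucleus, on the vertical axis as log2(RPM + 1), in 22 somatic-like and 294 visceral-like nuclei. Each point is a nucleus and each bar a median. For Trhr, 13 somatic-like nuclei sit above 10 RPM and the others at or under 1 RPM, whereas Tshr has a median of 0 in both classes.

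Summed over nuclei, Trhr reached 62.7 RPM (Poisson interval 60.1 to 65.3) in the somatic-like and 4.95 RPM (4.74 to 5.16) in the visceral-like class. Scaled to exon length, Trhr stood at 15.7 RPKM in somatic-like and 1.24 RPKM in visceral-like nuclei, whereas Tshr stood at 0.808 RPKM in somatic-like and 1.86 RPKM in visceral-like nuclei. The higher summed Tshr in visceral-like nuclei rested largely on cluster 5, without which they had 0.944 RPKM of Trhr and 0.795 RPKM of Tshr. The somatic-like nuclei held 51.6% of all Trhr reads with 7.77% of the reads of all genes. Without the nucleus with the most Trhr reads in each class the ratio was 10.8, and against the visceral-like nuclei other than cluster 5, described below, it was 16.6. In the 4 blocks of 96 consecutive nucleus numbers, Trhr was detected in 5 of 6, 3 of 7, 2 of 3 and 5 of 6 somatic-like nuclei. In the visceral-like nuclei of the same blocks it was detected in 23.5%, 29.0%, 24.2% and 24.2%, and the labels do not say whether the numbers follow plates.

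Within the somatic-like class, the nuclei with Trhr carried the markers of the class more often. All 6 somatic markers were detected at a higher share in the 13 nuclei with at least 5 thinned Trhr reads than in the other 9. Calca, which encodes a calcitonin gene-related peptide, was detected in 11 of 13 nuclei with Trhr (84.6%, 54.6 to 98.1) and 3 of 9 without (33.3%, 7.49 to 70.1). The transcription factor genes Lhx4, Isl2 and Mnx1 were detected in 76.9%, 53.8% and 46.2% of nuclei with Trhr, against 33.3%, 11.1% and 11.1% of those without. Chat was detected in all 22. The intervals overlapped for each of these markers, and the median depth was 1658167 reads with Trhr and 1633952 without. The division at 5 reads was chosen after the values were seen.

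In the visceral-like class, 9 nuclei had more than 50 RPM of Trhr, and 4 of them were in cluster 5. The strongest of these 4, with 296 Trhr reads (290.3 RPM), had 3 Chat reads, no Tbx20 read, 315 Tph2 reads and 1458 Calca reads, so its own markers went against the visceral-like label of its cluster. The next in cluster 5 had 174 Trhr reads beside 144 Chat, 86 Tbx20 and 46 Tph2 reads. The 5 strong nuclei outside cluster 5 had 271 to 850 Chat reads and at most 1 Tph2 read, and 57.6 to 83.0 RPM of Trhr. Strong Trhr signal was therefore present both in nuclei with and in nuclei without serotonergic reads. Over all retained nuclei without a read of Tph2, Slc6a4 or Fev, Trhr was detected in 24.3% of 140.

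A further clustering of the visceral-like nuclei alone, again without the receptors and listed genes, gave 11 clusters numbered by size, with 44 to 11 retained nuclei. Those named most often below were led by Nppb and Htr4 (cluster 1), Dact3, Atf3 and Dsp (cluster 5), Gm4881 and Lama1 (cluster 6), Olfr145 and C2cd6 (cluster 9), and Mroh2b and Tmprss11a (cluster 10). Trhr was detected in 4 of 8 nuclei of cluster 9 (50.0%), and at shares of 45.5% in cluster 10, 42.9% in cluster 6, 40.0% in cluster 5 and 37.5% in cluster 11. The other clusters had 25.9% (cluster 7), 23.5% (cluster 3), 21.1% (cluster 8), 16.7% (cluster 4), 14.3% (cluster 1) and 13.2% (cluster 2). The range was 36.8 points, under the limit of 40, and the intervals of all these clusters overlapped. By level the order differed: cluster 5 had 20.5 RPM, cluster 6 had 8.43 RPM and cluster 7, which is led by Penk and Pdyn, 6.39 RPM, while cluster 4 had 0.432 RPM. These levels leaned on single nuclei. The strongest nucleus held 47.2% of the Trhr reads of cluster 5, 26.7% of those of cluster 6 and 53.0% of those of cluster 7. Without its strongest nucleus cluster 5 had 11.2 RPM. In cluster 7 all 7 positive nuclei had at least 5 reads, and in cluster 4 this held for 1 of 5.

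**Figure D2:**
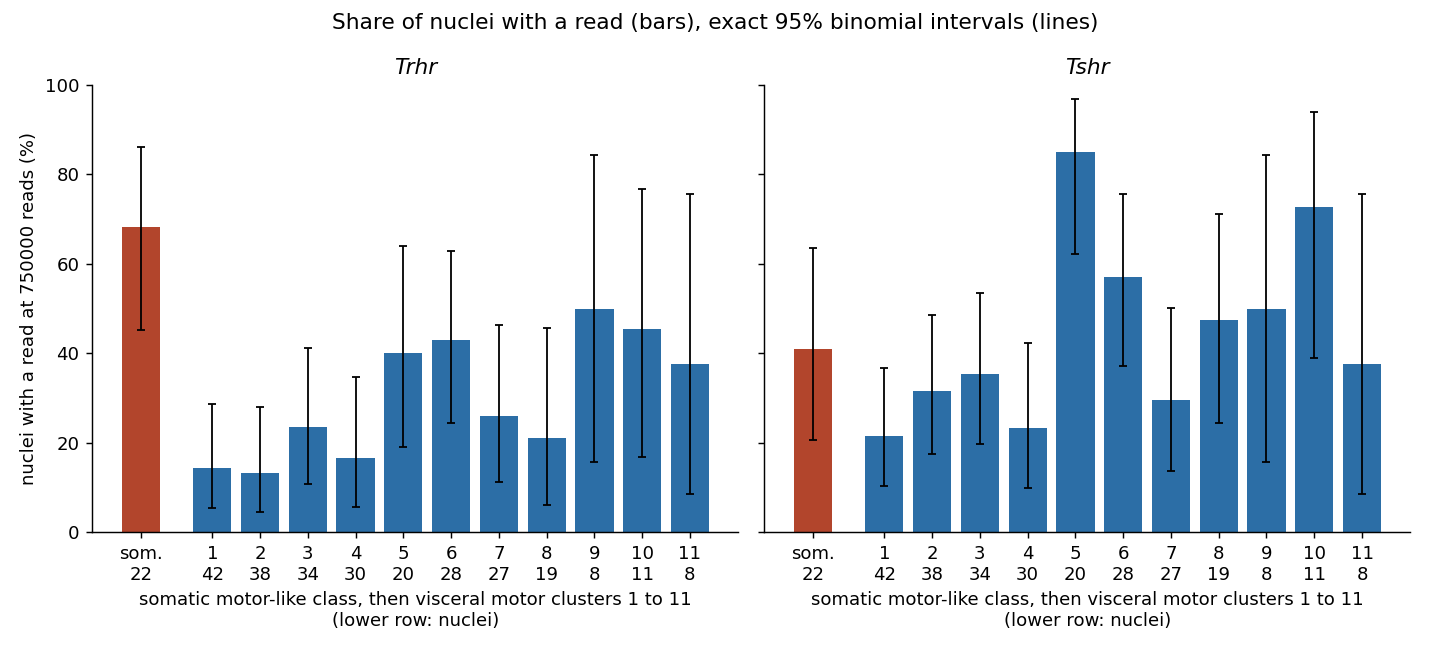
Share of nuclei with a read of Trhr (left) and Tshr (right) at 750000 reads, on the vertical axis in percent, in the somatic-like class (red) and the visceral motor clusters 1 to 11 (blue). Lines are exact 95% intervals and the lower row of numbers gives nuclei. Trhr is highest in the somatic-like class (68.2%), and Tshr in cluster 5 (85.0%).

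Tshr was detected at nearly the same share in both classes but was concentrated in cluster 5 of the visceral-like nuclei. The cholinergic and visceral motor markers of that cluster were on average less often detected than in the others. At equal depth Tshr was detected in 9 of 22 somatic-like nuclei (40.9%, 20.7 to 63.6) and 105 of 265 visceral-like nuclei (39.6%, 33.7 to 45.8). The difference of 1.29 points reversed to -8.41 points without thinning. Its summed level was 4.86 RPM in the somatic-like and 11.2 RPM in the visceral-like class, a ratio of 0.435. That ratio rested largely on cluster 5, since against the visceral-like nuclei outside it the ratio was 1.02. The value of 1.02 depended on 1 somatic-like nucleus that held 48.0% of the Tshr reads of its class. Without the strongest nucleus of each set the ratio was 0.648, and by the mean RPM over nuclei it was 0.875. In single nuclei Tshr ran from 0 to 60.9 RPM in the somatic-like and from 0 to 398.6 RPM in the visceral-like class, with a median of 0 in both.

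In cluster 5, Tshr was detected in 17 of 20 thinned nuclei (85.0%, 62.1 to 96.8), against 88 of 245 other visceral-like nuclei (35.9%, 29.9 to 42.3). At 5 reads it was found in 16 of 20 nuclei of cluster 5 and 29 of 245 others. Levels in the 30 retained nuclei of cluster 5 ran from 0 to 398.6 RPM with a median of 49.6 RPM, against 0 to 301.2 RPM with a median of 0 in the 264 others. The ranges overlapped. The summed level was 96.1 RPM in cluster 5 and 4.78 RPM in the others, 20.1 times as high, and 18.1 times as high without the strongest nucleus of each. Cluster 5 held 58.1% of all Tshr reads with 6.45% of the reads of all genes.

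Over the clusters, Tshr ranged by 63.6 points, from cluster 5 to cluster 1 (21.4%, 10.3 to 36.8), and was called. It was the 1 member of 2 with enough detection that passed, beside 3140 of 20935 genes (15%). Cluster 10 followed with 72.7%, cluster 6 with 57.1%, cluster 9 with 50.0%, cluster 8 with 47.4%, cluster 11 with 37.5% and cluster 3 with 35.3%. Clusters 2, 7 and 4 had 31.6%, 29.6% and 23.3%. Neighbours in this order had overlapping intervals, and the interval of cluster 5 lay above those of clusters 1, 2, 3, 4 and 7. Set against all other visceral-like nuclei, 313 genes (1.5%) were higher in cluster 5 by the same limit. Without thinning the range was 37.8 points, from 73.3% in cluster 5 to 35.5% in cluster 4, and was not called. Without cluster 5 the range was 51.3 points, from cluster 10, and was still called.

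The nuclei of cluster 5 also differed in depth and in markers. Their median depth was 1013745 reads, and at 750000 reads they had a median of 11852.5 genes, against 10450 in the other visceral-like nuclei. Chat was detected in 75.0% of cluster 5 and 99.6% of the others. The mean share over the cholinergic list was 72.5% in cluster 5 and 86.5% in the others (0 of 6 higher). Over the visceral motor list it was 48.0% in cluster 5 and 59.4% in the others (1 of 5 higher). The strongest Tshr nucleus of cluster 5 (847 reads) had 133 Chat reads. Others of cluster 5, with 245 and 241 Tshr reads, had no Chat read. Outside it, the nucleus with 301.2 RPM of Tshr had no Chat or Tbx20 read. All 5 serotonergic markers and all 5 astrocyte markers were detected at higher shares in cluster 5, with a mean over the serotonergic list of 27.0% in cluster 5 and 11.5% in the others, and over the astrocyte list of 43.0% in cluster 5 and 21.4% in the others. Summed serotonergic reads ran from 0 to 257 in cluster 5 and from 0 to 91 in the others, and summed astrocyte reads from 0 to 453 in cluster 5 and from 0 to 1119 in the others. The higher shares were not limited to these lists. The mean share was 16.3% in cluster 5 and 6.73% in the others for oligodendrocyte precursor markers (4 of 4 higher), and 24.0% in cluster 5 and 10.9% in the others for microglia (4 of 5). It was 44.0% in cluster 5 and 26.3% in the others for vascular cells (4 of 5), and 42.0% in cluster 5 and 32.7% in the others for oligodendrocytes (4 of 5). For markers of inhibitory (3 of 4 higher), glutamatergic (2 of 3) and ependymal cells (2 of 4) it was 22.5%, 20.0% and 26.2% in cluster 5, against 12.1%, 14.6% and 17.9% in the others. The catecholaminergic list went the other way, with 38.3% in cluster 5 and 45.4% in the others (2 of 6 higher). So did the general neuronal list, with 96.7% in cluster 5 and 98.6% in the others (2 of 6 higher). Within these lists, Slc17a7, Slc32a1, Pnmt, Tmem119, Cldn5 and Rarres2 had no read in cluster 5. Atf3, a stress-induced transcription factor gene, was detected in 90.0% of cluster 5 and 16.3% of the others. All 6 somatic motor markers were also more frequent in cluster 5. Some of these traits were shared by clusters 9 and 10, with 8 and 11 thinned nuclei. Cluster 9 had a median depth of 881626 reads and a median of 12212.5 genes at 750000 reads. Mean shares in clusters 9 and 10 were 30.0% and 23.6% for serotonergic, and 35.0% and 36.4% for astrocyte markers. They were 45.8% and 36.4% for glutamatergic, and 31.25% and 31.8% for inhibitory markers. Cholinergic means were 89.6% and 87.9%, and visceral motor means 75.0% and 40.0%. In nuclei without a read of Tph2, Slc6a4 or Fev, Tshr was found in 5 of 6 of cluster 5 (83.3%, 35.9 to 99.6) and 35 of 109 others (32.1%, 23.5 to 41.7), with overlapping intervals. The part of the glial, vascular and other neuronal markers and of the depth in the Tshr result was not tested. Outside cluster 5, Tshr was detected in 52.5% (36.1 to 68.5) of 40 nuclei with an Atf3 read and 32.7% (26.3 to 39.6) of 205 without. At 5 reads it was found in 27.5% (14.6 to 43.9) of those with and 8.78% (5.29 to 13.5) of those without. Atf3 was also the gene most correlated with Tshr over all visceral-like nuclei, these included. A higher share beside it was therefore partly fixed by the choice of gene.

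The share of Tshr also varied over the blocks of nucleus numbers. In visceral-like nuclei outside cluster 5 it was 42.4%, 35.5%, 43.1% and 22.0% in the blocks 1 to 96, 97 to 192, 193 to 288 and 289 to 384. Cluster 5 had 9, 7, 1 and 3 thinned nuclei in the same blocks, of which 6, 7, 1 and 3 had Tshr.

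Trhr2 and Trh were near the lower end of detection. The 6 nuclei with Trhr2 had 12, 11, 10, 10, 3 and 2 reads, and 4 of them were in cluster 5, where the share was 4 of 20 (20.0%, 5.73 to 43.7) against 1 of 245 other visceral-like nuclei (0.408%). The sixth was a somatic-like nucleus. All 6 had a Tph2 read (1 to 315 reads), which 42.4% of retained nuclei had, and no Trhr2 read was found in the 140 nuclei without Tph2, Slc6a4 and Fev reads. Of the 6 nuclei, 3 also had Trhr, with 296, 117 and 14 reads. The reads can also not be separated by strand from Gm20388.

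Trh itself was almost not detected. It had 53 reads in 3 visceral-like nuclei, of which 51 were in 1 nucleus of cluster 10 (35.8 RPM). That nucleus had 175 Chat reads, 34 Tshr reads, 1 Slc6a4 read and no read of Trhr, Tph2, Fev or Tbx20. The other 2 nuclei had a single read each. In somatic-like nuclei Trh had 0 of 22, which allows a share of up to 15.4%.

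Trhr and Tshr were seen together in 35 of 265 thinned visceral-like nuclei (13.2%), Trhr alone in 32 (12.1%), Tshr alone in 70 (26.4%) and neither in 128 (48.3%). Trhr was detected in 33.3% (24.4 to 43.2) of the 105 nuclei with Tshr and 20.0% (14.1 to 27.0) of the 160 without. Outside cluster 5 the values were 31.8% with and 19.7% without Tshr. The intervals overlapped in both cases. Nuclei with Tshr also had more genes detected at the thinned depth, 10977 with and 10306 without, and so did nuclei with Trhr, 11057 with and 10387 without. In the somatic-like class 7 of 22 nuclei had both receptors. At 5 reads of each, 3 somatic-like and 8 visceral-like nuclei had both.

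**Figure D3:**
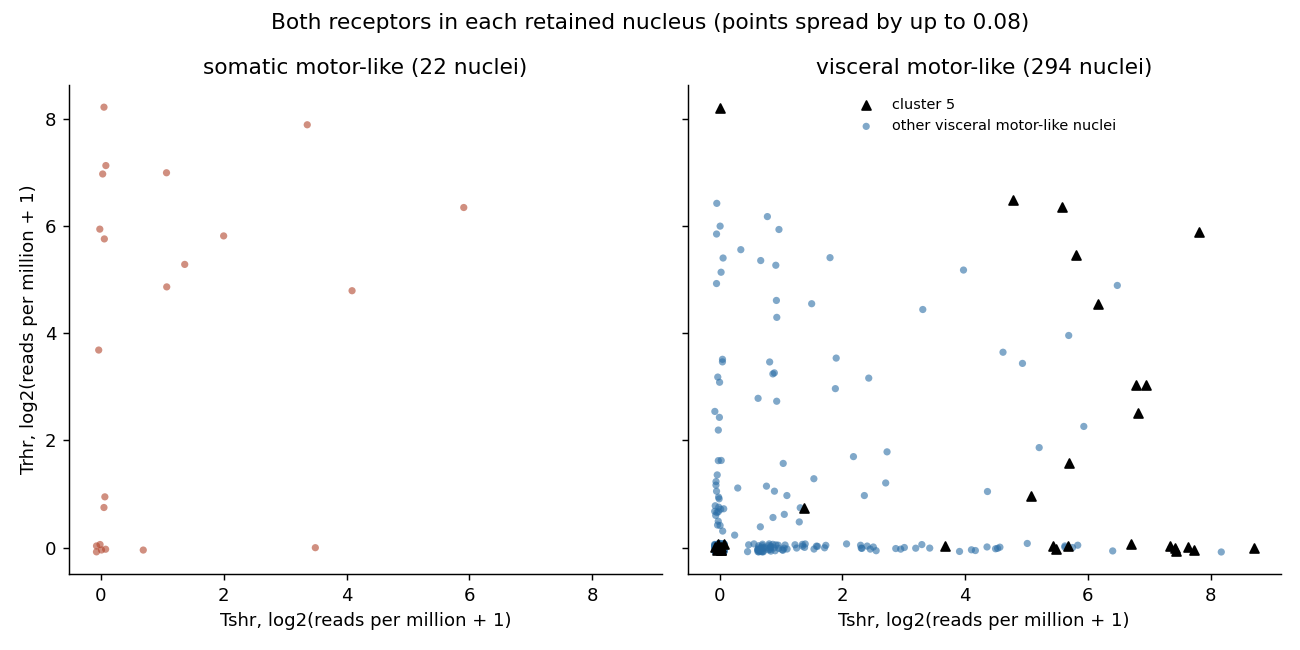
Trhr (vertical) against Tshr (horizontal) in each retained nucleus, both as log2(RPM + 1), in 22 somatic-like (left) and 294 visceral-like nuclei (right, cluster 5 as black triangles). Points are spread by up to 0.08 to show overlaps. Most nuclei lie on an axis, and 21 of the 30 triangles lie above 10 RPM of Tshr.

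Neither receptor differed beyond its intervals between nuclei with and without peptide or receptor genes often used to divide vagal motor neurons. Trhr was detected in 15.2% of the 46 visceral-like nuclei with Penk and 27.4% of those without, in 12.0% with and 26.7% without Vip, and in 38.1% with and 24.2% without Cck. For Cckar, the cholecystokinin A receptor gene, the shares were 34.8% with and 20.5% without. For Pdyn, Grp, Cartpt, Sst, Calb2, Nos1 and Npy2r they differed by 0.743 to 6.95 points. Tshr differed most for Grp, with 29.6% with and 40.8% without it, a difference of -11.1 points.

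The genes most like Trhr over the 294 visceral-like nuclei, by the Pearson correlation of log2(RPM + 1) among 15539 genes with a read in at least 20% of them, were Rgs13 (r = 0.37), Tfap2d (0.35), 4930471E19Rik (0.34), Gm29266 (0.34) and Sec16b (0.33). Rgs13 encodes a regulator of G protein signalling and Tfap2d a transcription factor. The 2 least like were Rsl24d1 (-0.23) and Pdp1 (-0.22), and the median over all genes was 0.027. Rgs13 was detected in 46.3% of thinned nuclei with Trhr and 13.1% of those without. This gene was picked for its correlation with Trhr in the same nuclei, so that difference follows in part from the choice. In the 22 somatic-like nuclei it was found in 13.3% of those with Trhr and 14.3% of those without. Without cluster 5 its correlation was 0.29 and none of the other 4 remained among the first 5, nor did Rgs13, which was seventh.

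For Tshr the most alike genes included Atf3 (r = 0.51), Gm44992 (0.48), Slc7a15 (0.48) and Gm26705 (0.46), and the least alike Nefl (-0.41), the light neurofilament gene, and Rnf112 (-0.40), against a median of 0.054. These values rested on cluster 5, without which the correlation with Atf3 was 0.23 (rank 100) and with Gm26705 0.073. Trhr and Tshr had r = 0.18 with each other. The nuclei share library chemistry and unequal depth, so these correlations describe this set only.

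Among peptide receptor genes, Trhr stood near the top in one class and in the middle of the other. It was ranked with Trhr2, Tshr and 76 listed receptor genes by thinned share. In somatic-like nuclei 5 receptors were above it, the nearest being the opioid receptor genes Oprm1 (77.3%) and Oprl1 (72.7%), and Lepr (63.6%) and then Crhr1 and Npsr1 (59.1% each) came after it. In visceral-like nuclei 32 were above it, the nearest being Prokr1 (30.9%) and Calcr (30.6%), with Kiss1r (21.9%) and then Oprd1 and Prokr2 (21.1% each) after it. Tshr had 14 receptors above it in somatic-like and 20 in visceral-like nuclei. Gpr39 and Pth1r were tied with it at 40.9% in somatic-like nuclei. In visceral-like nuclei Agtr1b was tied with it at 39.6%, Tacr1 and Gpr39 stood at 40.0% each, and Cckbr and Ntsr1 followed at 37.4% each. Trhr2 had 46 receptors above it in somatic-like and 69 in visceral-like nuclei. The median of the 76 listed receptor genes, without the 3 members, was 13.6% in somatic-like and 18.3% in visceral-like nuclei. The intervals of these neighbours overlapped that of the member.

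**Figure D4:**
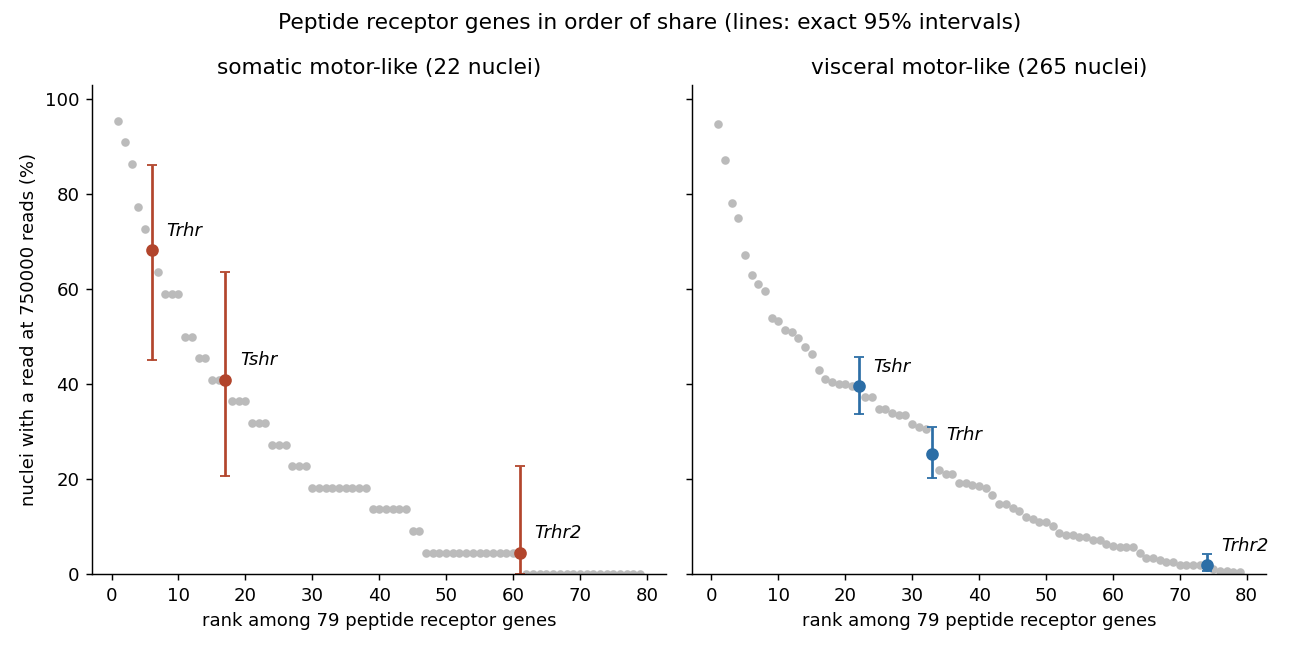
Shares of nuclei with a read for 79 peptide receptor genes (grey points) in order of share, in somatic-like (left) and visceral-like nuclei (right), on the vertical axis in percent at 750000 reads. Coloured points with exact 95% intervals mark Trhr, Tshr and Trhr2. Trhr has 5 receptors above it in somatic-like and 32 in visceral-like nuclei.

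Of the 76 other peptide receptor genes, 2 were called higher in somatic-like nuclei, Tacr1 for substance P (90.9% of somatic-like against 40.0% of visceral-like nuclei) and Vipr2 for VIP and PACAP (59.1% of somatic-like against 14.7% of visceral-like nuclei). Another 5 were called lower, Hcrtr1, Npffr1, Npffr2, Npy2r and Sstr5, which had 0% to 18.2% in somatic-like and 51.3% to 63.0% in visceral-like nuclei. These were named after their values were seen. The 7 stand among 61 tested, beside 0.525% of all genes called higher and 0.644% lower. Between visceral motor clusters 20 of 61 tested were called, beside 15% of all genes.

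The machinery downstream of Trhr was detected in most nuclei of both classes. Of 21 genes of the Gq and phospholipase C arm, 16 were found in over 50% of visceral-like nuclei, as were 47.7% of all genes tested. The list's median share was 90.9% in somatic-like and 91.3% in visceral-like nuclei, against 45.5% in somatic-like and 46.0% in visceral-like nuclei over all genes. Gnaq, the Gq alpha subunit, was detected in every thinned nucleus and Plcb1, a phospholipase C, in 100% of somatic-like and 99.6% of visceral-like nuclei. Plcb2 was the least detected (4.55% of somatic-like and 7.17% of visceral-like nuclei).

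Of these 21 genes 2 were called higher and 1 lower in somatic-like nuclei, beside 0.525% and 0.644% of all genes. Itpr3, an inositol trisphosphate receptor through which stored calcium is released, was detected in 68.2% (45.1 to 86.1) of somatic-like and 22.3% of visceral-like nuclei, with 27.2 RPM in somatic-like and 2.64 RPM in visceral-like nuclei. Rgs4, which speeds the switching off of Gq and Gi proteins, was detected in 90.9% of somatic-like and 32.8% of visceral-like nuclei. Prkcd, a protein kinase C, was detected in 31.8% of somatic-like and 78.9% of visceral-like nuclei. Gna14, another alpha subunit of the Gq family, had a share of 81.8% and 113 RPM in somatic-like against 46.4% and 11.1 RPM in visceral-like nuclei and did not pass the limit of 40 points. Between visceral motor clusters 6 of 21 were called, Arrb2, Gna14, Plcb3, Prkcd, Rgs2 and Rgs4, beside 15% of all genes. Rgs4 was least frequent in cluster 4 (3.33%) and most in cluster 11 (87.5%), and Arrb2, an arrestin that ends receptor signalling, least in cluster 5 (30.0%) and most in cluster 11 (100%). Rgs2, another regulator of Gq signalling, was least frequent in cluster 10 (36.4%) and most in cluster 3 (100%).

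Channels that Gq receptors close or open were also common, 13 of 14 being found in over 50% of visceral-like nuclei. The same held for 47.7% of all genes tested. Kcnk3 and Kcnk9 encode the TASK potassium leak channels, whose closure by TRH depolarises motor neurons. Kcnk9 was the 1 channel of 14 called higher, beside 0.525% of all genes. It had 86.4% (65.1 to 97.1) of somatic-like against 43.0% of visceral-like nuclei and 65.2 RPM in somatic-like against 21.0 RPM in visceral-like nuclei. Kcnk3 was detected in 90.9% of somatic-like and 94.7% of visceral-like nuclei. The most detected were Kcnq3 (95.5% of somatic-like and 99.6% of visceral-like nuclei), a subunit of the muscarine-sensitive potassium current, and Nalcn (100% of somatic-like and 99.6% of visceral-like nuclei), a sodium leak channel. The least detected beside Kcnk9 was Trpc6 (54.5% of somatic-like and 58.5% of visceral-like nuclei). Those called between visceral motor clusters included Kcnk9, Trpc6 and Trpc7, Kcnk9 from 13.2% in cluster 2 to 89.5% in cluster 8 and Trpc7 from 21.1% in cluster 8 to 100% in cluster 3. Neither of these ranges had an end in cluster 5. In all, 4 of 14 channels were called between clusters, beside 15% of all genes.

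Of 3 enzymes that break down TRH none was called. Trhde, the TRH-degrading ectoenzyme, was detected in 95.5% (77.2 to 99.9) of somatic-like and 83.4% (78.4 to 87.7) of visceral-like nuclei, with 59.1 RPM in somatic-like and 39.3 RPM in visceral-like nuclei. Prep, prolyl endopeptidase, was detected in 86.4% of somatic-like and 79.6% of visceral-like nuclei, and Pgpep1, pyroglutamyl peptidase I, in 50.0% of somatic-like and 61.5% of visceral-like nuclei. Trhde was found in most nuclei of both classes.

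The enzymes that make peptides from precursors such as that of TRH were present, with 10 of 10 genes over 50% in visceral-like nuclei. The same held for 47.7% of all genes tested. The list median was 93.2% in somatic-like and 96.0% in visceral-like nuclei. Cpe, a carboxypeptidase, and Pam, the amidating enzyme, were detected in all thinned nuclei. Furin (36.4% of somatic-like and 52.5% of visceral-like nuclei) and Qpctl, a glutaminyl cyclase (63.6% of somatic-like and 71.7% of visceral-like nuclei), were the least detected. The prohormone convertase gene Pcsk1 was called lower, with 40.9% (20.7 to 63.6) of somatic-like and 93.2% (89.5 to 95.9) of visceral-like nuclei and 19.3 RPM in somatic-like against 217 RPM in visceral-like nuclei. It was also called between clusters, from 55.0% in cluster 5 to 100% in cluster 3. It was 1 of 10 in each case, beside 0.644% of all genes called lower and 15% called between clusters.

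**Figure D5:**
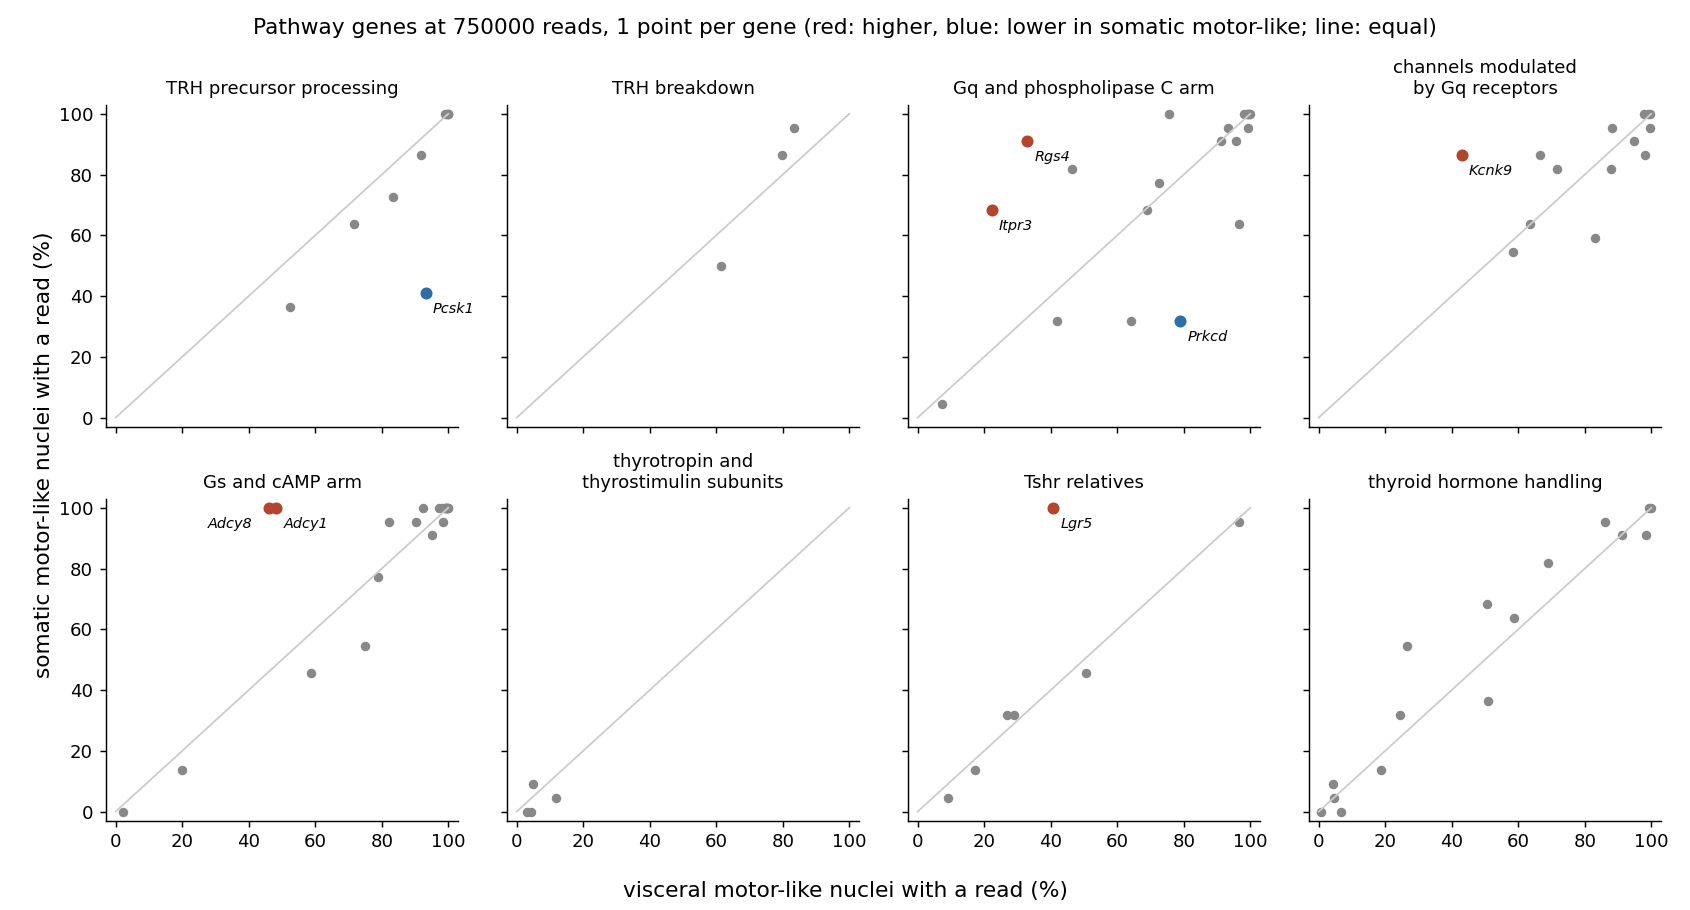
Shares of nuclei with a read at 750000 reads for genes of 8 pathway lists, in percent, in somatic-like (vertical) and visceral-like nuclei (horizontal). Each point is a gene, red where called higher and blue where called lower in somatic-like nuclei, and the line marks equal shares. Most points lie near the line or at the upper right, and the 8 coloured genes are those named in the text.

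Downstream of Tshr, 18 of 22 genes of the Gs and cyclic AMP arm were found in over 50% of visceral-like nuclei. The same held for 47.7% of all genes tested. List medians were 100% in somatic-like and 96.2% in visceral-like nuclei. Pde4d, a cyclic AMP phosphodiesterase, and Prkar1a, a regulatory subunit of protein kinase A, were detected in all thinned nuclei, and Adcy4 (0% of somatic-like and 2.26% of visceral-like nuclei) and Pde4c (13.6% of somatic-like and 20.0% of visceral-like nuclei) were rare. The calcium-stimulated adenylyl cyclase genes Adcy1 and Adcy8 were called higher, 2 of 21 tested, beside 0.525% of all genes. Both were found in 22 of 22 somatic-like nuclei (100%, 84.6 to 100) and in 48.3% and 46.0% of visceral-like nuclei. Adcy8 was also called between visceral motor clusters, from 25.9% in cluster 7 to 67.9% in cluster 6. It was 1 of 21 tested, beside 15% of all genes.

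Genes for ligands of Tshr were rare. Tshb, the thyrotropin beta subunit, was detected in 4.55% of somatic-like and 11.7% of visceral-like nuclei, and Cga, the shared alpha subunit, in 9.09% of somatic-like and 4.91% of visceral-like nuclei. Gpha2 and Gphb5, the subunits of thyrostimulin, were found in 0 of 22 somatic-like nuclei and in 3.02% and 4.15% of visceral-like nuclei. Only Tshb and Cga were detected often enough to be tested between classes, and only Tshb between clusters, and neither was called.

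Among 7 relatives of Tshr in the family of leucine-rich-repeat receptors, 1 was called higher, Lgr5, beside 0.525% of all genes. It was detected in 100% (84.6 to 100) of somatic-like and 40.8% of visceral-like nuclei, with 83.5 RPM in somatic-like and 6.33 RPM in visceral-like nuclei. Lgr4 was frequent in both classes (95.5% of somatic-like and 96.6% of visceral-like nuclei), Fshr, the receptor for follicle-stimulating hormone, had 45.5% in somatic-like and 50.6% in visceral-like nuclei, and Lhcgr (4.55% of somatic-like and 9.06% of visceral-like nuclei) and Rxfp2 (13.6% of somatic-like and 17.4% of visceral-like nuclei) were the least detected. Between visceral motor clusters Fshr and Rxfp1, a relaxin receptor gene, were called, 2 of 7 beside 15% of all genes. Both were highest in cluster 10 (100% for Fshr and 81.8% for Rxfp1), the cluster that came after cluster 5 for Tshr.

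Of 16 genes for thyroid hormone entry, conversion and action, 13 were detected often enough to be tested, and none of these 13 was called between classes or clusters. The corepressor gene Ncor1 was detected in all 22 somatic-like and all 265 visceral-like nuclei. The deiodinase genes Dio2 (9.09% of somatic-like and 4.15% of visceral-like nuclei) and Dio3 (0% of somatic-like and 0.755% of visceral-like nuclei) were rare.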

How the data were processed

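Read counts per gene and nucleus were taken as deposited, not normalised. Per the submitters' processing notes the build was GRCm38 and the tools included STAR, Picard, bcl2fastq, Seurat version 3 and edgeR. Which annotation and strand setting the counting used is not given in the sources used here. Nuclei with at least 1000 genes with a read were kept. Counts scaled to 10000 and log-transformed gave 2000 variable genes, 15 components, 10 neighbours and Leiden clusters at resolution 1 (scanpy 1.11.5), named from listed markers (visceral-like or somatic-like by the larger mean share of nuclei with a read). No doublet caller was run, as 1 nucleus was sorted per well. Shares were compared after thinning to 750000 reads, the largest preset depth reached by 90% of visceral-like nuclei. Intervals are exact (Clopper-Pearson for shares, Poisson for RPM). Clusters needed 8 thinned nuclei, and genes a read in 5% of thinned nuclei, to be tested by the limit. Steps were tested on simulated data. edgeR 4.0.16 gave 1 alternative scaling. Identical retained columns numbered 0.

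The genes named beside the members are Chat, Slc18a3, Slc5a7, all genes of the lists for TRH breakdown and thyrotropin subunits, the 2 most and 2 least detected of other lists, every called gene, receptors ranked beside a member and the genes most and least alike. Some genes that this rule names are not reported here. Of 181 listed genes 177 were in the table. The members and lists were chosen with earlier results of these data known. Reference sequences are from GENCODE M21 transcripts. The labels' protocol names sections around the SCN, which was not resolved.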

Additional observations from a re-analysis of the deposited data

Results flagged for a closer look

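Trhr had 54 reads in the 67 nuclei that the gene filter left out, above the 3 reads taken as the limit that a count of 0 allows. Of these reads 53 came from 1 nucleus with 4305 reads and 216 genes in all, and 1 from a nucleus with 2479 reads. Tshr, Trhr2 and Trh had no read in these 67 nuclei, whose median depth was 2328 reads.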

How the results depend on the processing

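Shares over retained nuclei moved with the reads required. At 2 and 5 reads Trhr was found in 23.4% and 17.7% and Tshr in 31.3% and 21.2%. Without nuclei with serotonergic reads the shares were 24.3% and 39.3%, and Tshr was found in 39.7% after thinning. The Trhr difference between somatic-like and visceral-like nuclei kept its direction in all 12 alternatives but missed 40 points in 5 of them: 38.6 without thinning, 38.7 in another draw, 39.8 with genes scaled before clustering, 34.5 at 500000 reads and 30.9 without nuclei with serotonergic reads, the last 3 chosen after seeing the data. Intervals overlapped only in the last, with 8 somatic-like nuclei. With at least 2000 genes required, 14 nuclei were somatic-like instead of 22, so the class depended on this filter. Trhr was then detected in 92.9% of somatic-like (66.1 to 99.8) and 25.3% of 273 visceral-like nuclei, a difference of 67.6 points. The Trhr range over clusters passed at resolution 1.5 (41.7 points) and with scaled genes (44.0). The Tshr range missed the limit without thinning (37.8). Reversed values, none of them called, were the Tshr difference without thinning (-8.41 points) and without nuclei with serotonergic reads (-22.3), the Trhr2 difference at 5 reads (-1.51) and with at least 2000 genes (-2.20), the Trh difference at resolution 1.5 (3.32) and the log2 ratio of Tshr levels between classes without cluster 5 (0.024). Genes higher in somatic-like nuclei numbered 283 with at least 2000 genes, and 4866 genes were called between clusters with scaled genes. The causes were not tested. Of the 5 genes most like Trhr and Tshr, 2 and 0 remained by Spearman correlation. No paired analysis was possible because all nuclei form 1 group. For Trhr2 and Trh, depth and single reads allow no comparison beyond the intervals given.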
